A study of Saccharomyces cerevisiae with 10 samples.

Results

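The single nucleotide polymorphisms (SNPs) that lie within 20 kb of a centromere were followed on SNP microarrays of 10 diploid isolates of budding yeast, Saccharomyces cerevisiae. The centromere positions were those of the S288C genome, taken to the nearest 0.1 kb, and each of the 16 chromosomes gave 1 window of 40 kb. The windows held 2545 of the 53664 probes on the array (4.74%). They held 642 of the 13461 SNPs that had probes for both alleles (4.77%), and the other 12819 SNPs made up the rest of the genome. Of the 642 SNPs, 560 were measured on all 10 arrays and 4 on none. Position alone chose the SNPs, so their allele states and signals were free to differ from those elsewhere. The genome build of the deposited probe positions is not given in the sources used here, and positions are printed as deposited.

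The centromere of budding yeast is a short defined sequence on which the kinetochore assembles, the protein complex that ties a chromosome to the spindle. Cohesin is dense in the pericentromere around it and holds sister chromatids together until anaphase, and meiotic crossovers are repressed close to it. A diploid that is heterozygous at many SNPs can lose 1 allele over a tract, which is called loss of heterozygosity (LOH). A gene conversion leaves a short interstitial tract, whereas a mitotic crossover or break-induced replication leaves a tract that runs on to the chromosome end. A mitotic crossover can make homozygous only markers on the far side of the exchange from the centromere, and SNPs that flank the centromere therefore show whether both homologs' centromere regions are still present.

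The HK isolates were 4 purified diploids, a pair (A and B) named HK10 and a pair (A and B) named HK12. They were set against 6 zygotes, 4 from a cross of MD893-1 with LSY3454-2 and 2 from a cross of MD893-2 with LSY3454-2. These names are those of the sample titles, and the sample sources and data columns read MD891 and MD892 in their place. All 10 carry the label W303-1A crossed with YJM789, a laboratory strain and a clinical isolate, and all were grown in rich YPD medium. The labels give no genotype for HK10, HK12, MD893-1, MD893-2 or LSY3454-2, and none is assumed here. They do not say whether isolates A and B of a name came from separate cultures, so values per name are given beside the p-values over the 4 HK isolates, which may rest on technical spread. The sets differ in strain and in origin at once, and these cannot be told apart. Each isolate's DNA carried Cy5 and was hybridised together with Cy3-labelled DNA of the diploid JSC24, and the deposited value is the linear ratio of isolate to JSC24. The allele difference d is the log2 ratio of a SNP averaged over its S probes minus the same over its Y probes. It is near 0 where both alleles are present, and far above 0 (S kept) or below 0 (Y kept) where 1 is lost. The labels do not define the letters S and Y. The signal s is the mean log2 ratio of both alleles. Arrays measured 12324 to 13377 SNPs each, with noise of d of 0.142 to 0.279, and 583 to 634 of these SNPs lay in the windows.

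The windows were slightly poorer in SNPs than the rest of the genome, with 10.03 SNPs per 10 kb in the windows and 11.7 SNPs per 10 kb outside them. Chromosome XVI had the most SNPs in its window, 62, and chromosome XII the fewest, 9. The median window held 44.5 SNPs, and in 10 of the 16 chromosomes the window was less dense than the rest. The measured SNP nearest to the centromere on each side lay a median of 0.414 kb away and at most 5.17 kb away, on chromosome XII.

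Every centromere was flanked in every isolate by SNPs outside LOH tracts. In all 160 combinations of window and isolate the nearest measured SNPs on the left and right both lay outside tracts called by a hidden Markov model of allele states. A tract needed at least 5 SNPs, and SNPs outside tracts counted as heterozygous, so this count cannot show shorter runs. Of these 320 SNP values, 5 had an absolute d over 1 and 1 had an absolute d over 1.5. That SNP lay on chromosome II at 238120, 0.080 kb left of the centromere, with a d of -1.65 in MD893-1 zygote 4. The median d of a whole window lay between -0.15 (window I of HK12 A) and 0.28 (window XII of MD893-2 zygote 2), which is near the heterozygous level in each of the 160 combinations. The HK isolates carried 45 counted LOH tracts and 0 of them contained a centromere, although 13 reached the end of the measured SNPs on an arm.

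Counted LOH touched the windows of chromosomes X and IV alone, both only in HK isolates. An end of a tract fell within 20 kb of a centromere in 4 cases, which are 2 distinct tracts each seen in isolates A and B of 1 name. The next nearest end of a counted tract, of a Y tract on chromosome II in HK10, was 47.5 kb from its centromere. An S tract on chromosome XV in HK12 A, 43.5 kb from its centromere, was not counted because both MD893-2 zygotes carried it. In HK10 A 9 of 616 window SNPs were in LOH, against 17.2% of all SNPs of that array, and in HK10 B 9 of 618, against 13.3% of all SNPs. In HK12 A 1 of 601 window SNPs was in LOH, against 7.32% of all SNPs, and in HK12 B 1 of 612, against 12.4% of all SNPs. The 6 zygotes had 0 window SNPs in LOH, and 0.0374% of all SNPs in MD893-1 zygote 2 and 0% in the other zygotes were in LOH. The 0.0374% was a run of 5 SNPs on chromosome V, 118.2 kb from the centromere, that was also seen in MD893-1 zygotes 1 and 4 with 4 measured SNPs, under the minimum.

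On chromosome X both HK10 isolates carried a short Y homozygous tract that began 1.44 kb to the right of the centromere. It covered 9 SNPs, the first at 437739 and the last at 442525. At the first of them d was -3.03 in HK10 A and -3.14 in HK10 B, against -0.03 in HK12 A and -0.37 in HK12 B. At the same SNP the zygotes ran from a lowest d of -0.30 through a median of -0.16 to a highest of -0.09. HK10 A and HK10 B were thus far below every other isolate there, and the groups did not overlap. At the next SNP, 438486, d was -2.48 in HK10 A and -2.86 in HK10 B. The 9 SNPs had a median d of -3.17 in HK10 A and -3.30 in HK10 B. In HK12 A and HK12 B the same SNPs had median d values of -0.03 and -0.09, and over all 9 SNPs no zygote value left the range of -0.86 to 0.44. The highest HK10 value, -2.48, was below the lowest value of any other isolate at any of these SNPs. The tract was called from these same values, so the separation describes it and is no test.

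The SNPs that bound the chromosome X tract were heterozygous. Between the centromere and the tract, the SNP at 436583 had a d of 0.05 in HK10 A and 0.10 in HK10 B. On the other side of the centromere, the SNP at 436293 had a d of -0.08 in HK10 A and 0.14 in HK10 B. Beyond the tract the SNP at 443638 had a d of 0.10 in HK10 A and 0.08 in HK10 B, and the next at 448428 one of 0.06 in HK10 A and 0.09 in HK10 B. The tract thus lay within 1 arm with heterozygous SNPs on each side. Relative to the other heterozygous SNPs of the window, the S allele fell by 2.69 on the log2 scale in HK10 A and by 2.88 in HK10 B. The Y allele stood 0.61 higher in HK10 A and 0.50 higher in HK10 B, so 1 allele was at a loss and the other at a gain. Probes of both strands gave the loss, with a median d of -3.36 on the F strand and -3.55 on the R strand in HK10 A, and of -3.02 and -3.64 on those strands in HK10 B. In the RefSeq R64 annotation the gene to the left of this centromere is PRE3, a catalytic subunit of the proteasome. The first genes to its right are AVT1, a vacuolar amino acid transporter, MPP10, a component of the complex that processes small subunit ribosomal RNA, MRX12 and SAG1, the alpha-agglutinin of mating. The tract was not placed on these genes because the build of the probe positions is not named.

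**Figure D1:**
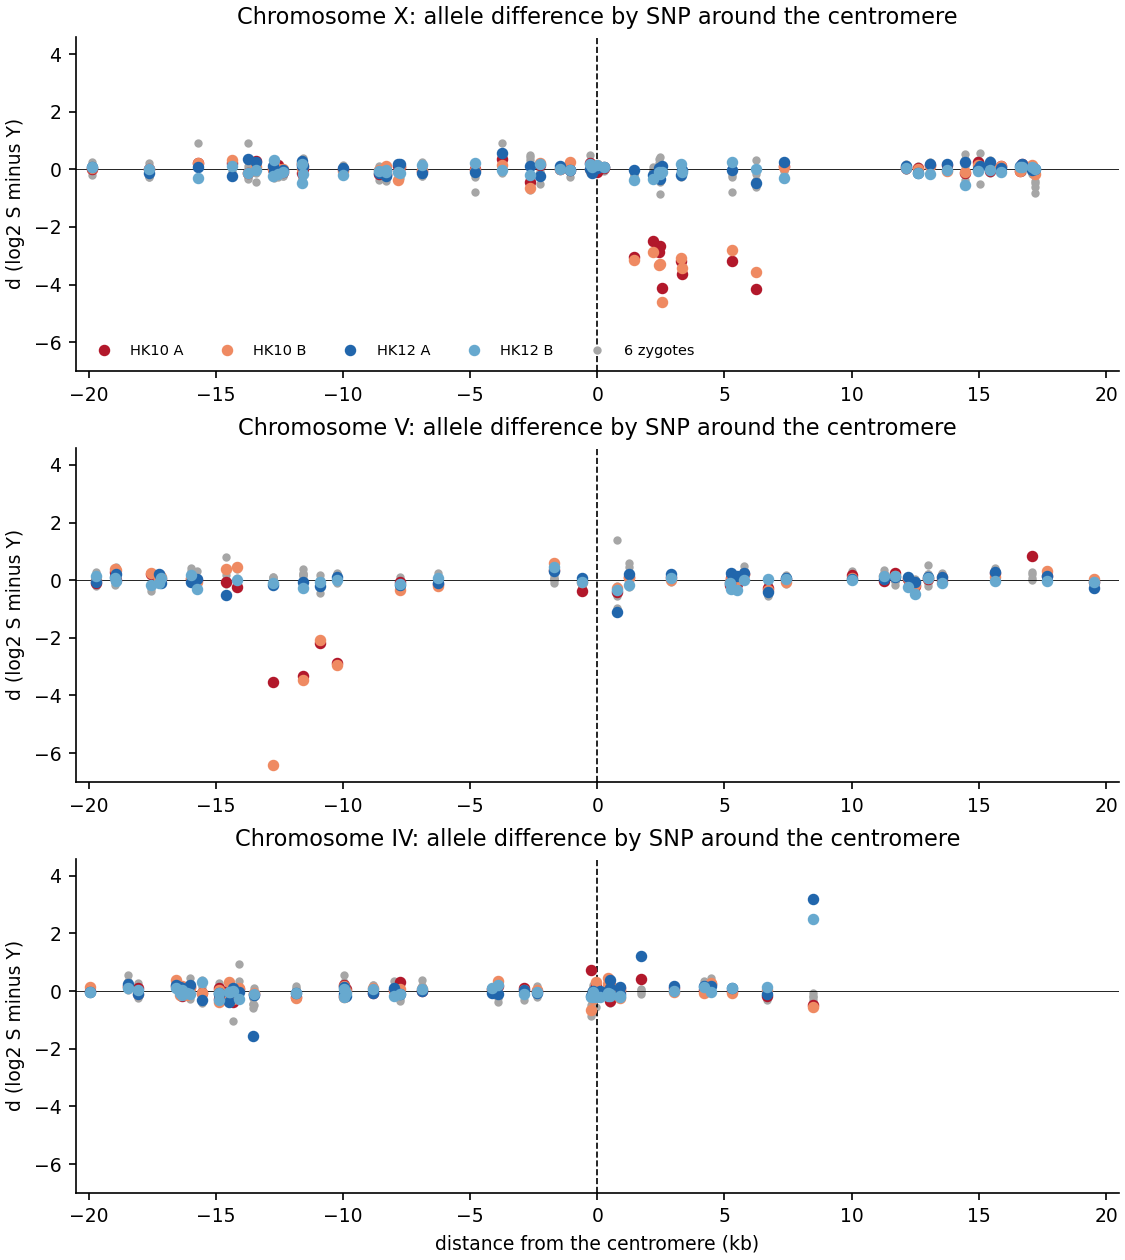
Allele difference d (log2 S minus Y, y axis) of each SNP against its distance from the centromere in kb (x axis, dashed line at the centromere) in the windows of chromosomes X, V and IV. Coloured points are the 4 HK isolates and grey points the 6 zygotes: HK10 A and B lie near -3 over 9 SNPs on X and 4 SNPs on V, HK12 A and B lie above 2 at the last SNP on IV, and the SNPs next to each centromere lie near 0 in most isolates.

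On chromosome IV the long S homozygous tract of HK12 A and HK12 B began inside the window, at 458195, which is 8.49 kb to the right of the centromere. At this SNP d was 3.20 in HK12 A and 2.50 in HK12 B, against -0.47 in HK10 A and -0.57 in HK10 B. The zygotes ran from a lowest d of -0.50 through a median of -0.26 to a highest of -0.06. The HK12 isolates thus stood apart from the other 8, which is a description, since the tract was called from these same values. The SNP before it, at 456380 and 6.68 kb from the centromere, was heterozygous, with a d of -0.09 in HK12 A and 0.13 in HK12 B. The SNP before that, at 455000, had a d of 0.09 in HK12 A and 0.12 in HK12 B. The switch from both alleles to S alone therefore lay between 6.68 and 8.49 kb from the centromere. The called tract went on to the last measured SNP at 1515286, and 1 of its SNPs fell in the window because no SNP was measured between 458195 and 469765. The SNP at 469765, 20.1 kb from the centromere and just outside the window, had a d of 2.07 in HK12 A and 2.17 in HK12 B. Both HK10 isolates were heterozygous there, with a d of -0.07 and -0.10.

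Over the first 12 SNPs of that tract, which end at 499633, the Y allele fell by 2.60 on the log2 scale in HK12 A and by 2.44 in HK12 B against heterozygous SNPs of the window. The S allele stood 0.73 higher in HK12 A and 0.66 higher in HK12 B. Over the same SNPs the median of d was -0.026 in HK10 A and -0.0023 in HK10 B. The chromosome IV tract kept S and continued to the chromosome end, whereas the chromosome X tract of HK10 kept Y and was bounded on both sides. To the right of the chromosome IV centromere, the R64 annotation lists NTH1, a neutral trehalase, YRB1, a Ran-binding protein of nuclear transport, RCR2, YDR003W-A, RAD57, a RecA paralog of homologous recombination, MAF1, the repressor of RNA polymerase III, SOK1 and TRP1. TRP1, an enzyme of tryptophan synthesis, is a classical centromere-linked marker. To the left it lists RMD1. No gene was assigned to the tract.

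A shorter run of homozygous values lay in the window of chromosome V in both HK10 isolates. It was singled out after its values were seen. It had 4 SNPs, under the minimum of 5 for a counted tract, and it was called when the minimum was 3. Its SNPs lay at 139257, 140419, 141108 and 141767, and its near end was 10.2 kb left of the centromere. At 139257 d was -3.53 in HK10 A and -6.43 in HK10 B, and at 141767 it was -2.86 in HK10 A and -2.95 in HK10 B. At all 4 SNPs HK12 lay between -0.27 and 0.10 and the zygotes between -0.45 and 0.38, so HK10 did not overlap with the others. The flanking SNPs were heterozygous, with a d at 137832 of -0.23 in HK10 A and 0.47 in HK10 B and at 144252 of -0.07 in HK10 A and -0.33 in HK10 B. On the log2 scale the S allele fell by 2.40 in HK10 A and fell by 3.16 in HK10 B, and the Y allele stood 0.61 higher in HK10 A and 0.66 higher in HK10 B. With this run counted, both events in HK10 windows were short, kept Y and were bounded by heterozygous SNPs.

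The share of window SNPs in LOH was far below that of the rest of the genome in each HK isolate. It was 1.46% in the windows and 18.0% in the rest in HK10 A, and 1.46% in the windows and 13.9% in the rest in HK10 B. In HK12 A it was 0.166% in the windows and 7.67% in the rest, and in HK12 B 0.163% in the windows and 13.0% in the rest. The windows minus the rest averaged -12.3 ± 3.71 percentage points in the HK isolates (SD, n = 4) and -0.0065 ± 0.0160 in the zygotes (SD, n = 6). Since the zygotes carried almost no LOH anywhere, their value is near 0 by construction, and a comparison between the sets shows only that the HK isolates carried LOH. It is no test of windows against the rest, which is given here as the values of each HK isolate. The 4 HK isolates carried only 2 distinct window tracts, which limits what the share in the windows can show. The share in the rest also came largely from a few long tracts. In HK12 A the chromosome IV tract had 856 SNPs, beside 925 SNPs of the rest in LOH. In HK12 B the tracts on IV and XII had 854 and 659, beside 1581. In HK10 A the long tracts on IV and XII had 596 and 859, beside 2207, and in HK10 B that on XII had 862, beside 1709. SNPs of 1 tract are not separate events.

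Between sets, the share of window SNPs in LOH averaged 0.812% ± 0.747 in the HK isolates (SD, n = 4) and 0% in the zygotes (n = 6). All 6 zygotes were at 0, and the HK12 values rested on 1 SNP per isolate, so the difference of 0.812 points is given as a description. The SNP share and the share by length ordered the names differently. By length, 5.92 kb of the 640 kb of windows (0.925%) was in LOH in each HK10 isolate, and 12.4 kb (1.94%) in each HK12 isolate. HK10 was above HK12 by SNPs and below it by length, since the HK12 tract crossed the stretch without SNPs on chromosome IV.

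**Figure D2:**
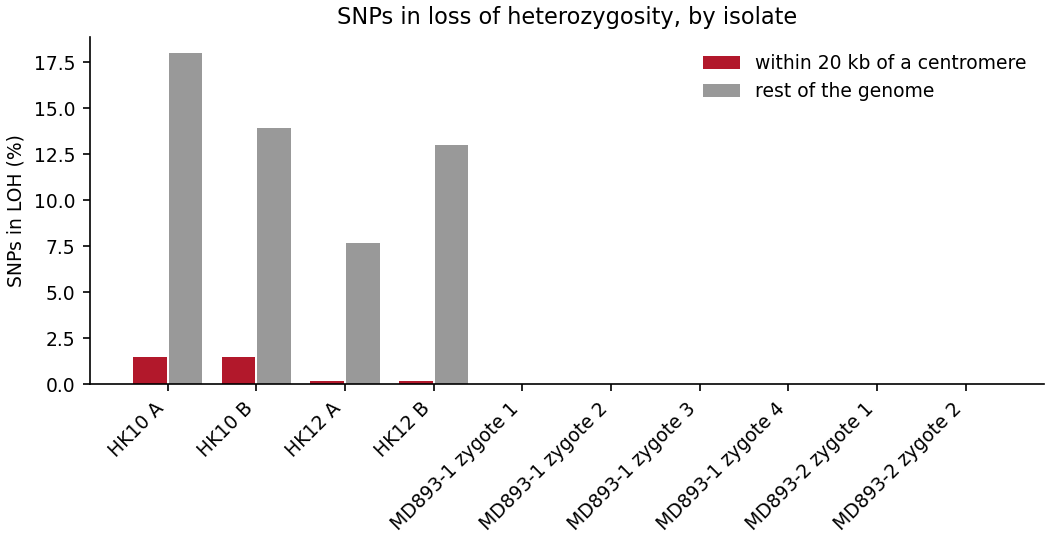
Percent of measured SNPs in counted LOH tracts (y axis) in each of the 10 isolates (x axis), with red bars for SNPs within 20 kb of a centromere and grey bars for the rest of the genome. In the 4 HK isolates the red bars reach 0.163% to 1.46% and the grey bars 7.67% to 18.0%, and in the zygotes the only value above 0 is the 0.0392% outside the windows of MD893-1 zygote 2, too small to see.

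In signal, both alleles of several windows stood higher in the HK isolates than in the zygotes, those of chromosomes I, III and VI most of all. In the window of chromosome I the S allele averaged 0.61 ± 0.02 in the HK isolates (SD, n = 4) and -0.02 ± 0.05 in the zygotes (SD, n = 6), on the log2 scale. The Y allele there averaged 0.74 ± 0.03 in the HK isolates and -0.02 ± 0.04 in the zygotes. The lowest HK value of either allele was 0.59 and the highest zygote value 0.03, so the sets did not overlap. In window VI the S allele averaged 0.54 ± 0.05 in the HK isolates and -0.0030 ± 0.0414 in the zygotes, and the Y allele 0.53 ± 0.07 in the HK isolates and -0.0046 ± 0.0567 in the zygotes. Window III behaved likewise, with an S allele at 0.44 ± 0.04 and a Y allele at 0.44 ± 0.01 in the HK isolates, against -0.05 ± 0.11 and -0.02 ± 0.03 in the zygotes.

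Before any chromosome mean was removed, limma on the windows and 40 kb bins called 10 of 15 windows (window XII had too few SNPs), 6 higher and 4 lower in HK. Of all 285 bins, 28.4% were higher and 49.1% lower in HK, so calls were common over the whole genome. Window I was higher in HK by 0.70 (SE 0.02, limma adjusted p = 3.41e-11), window VI by 0.54 (SE 0.03, limma adjusted p = 1.55e-08) and window III by 0.48 (SE 0.03, limma adjusted p = 1.48e-08). Window V was higher by 0.09 (SE 0.03, limma adjusted p = 0.0126). The other calls, named after their values were seen, were VIII and IX, higher in HK, and IV, VII, XV and XVI, lower in HK.

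With the mean of the rest of the chromosome removed, no window passed the test of signal between HK isolates and zygotes. Of 285 bins limma called 1 higher in HK (0.351%) and 0 lower (0%) at an adjusted p under 0.05, and 0 of the 15 windows was called. At an unadjusted p under 0.05 there were 24 bins, of which 1 was a window. That was window VI, where the window minus the rest of its chromosome was -0.07 and -0.11 in isolates A and B of HK10 and -0.04 and -0.07 in isolates A and B of HK12. In the zygotes it lay between -0.05 and 0.08, so the sets overlapped, and the difference was -0.09 (SE 0.03, limma adjusted p = 0.533). Window V had the next lowest difference, -0.06 (SE 0.03, limma adjusted p = 0.533), followed by window II with -0.04 (SE 0.03, limma adjusted p = 0.741). In window V the low values were those of HK10, -0.07 in A and -0.15 in B, against 0.03 in HK12 A and 0.01 in HK12 B. With the 4 SNPs of the homozygous run left out, HK10 A stood at 0.03 and HK10 B at -0.02. The highest differences were 0.02 in window III (limma adjusted p = 0.844), 0.02 in window XIII (limma adjusted p = 0.788) and 0.01 in window I (limma adjusted p = 0.862).

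**Figure D3:**
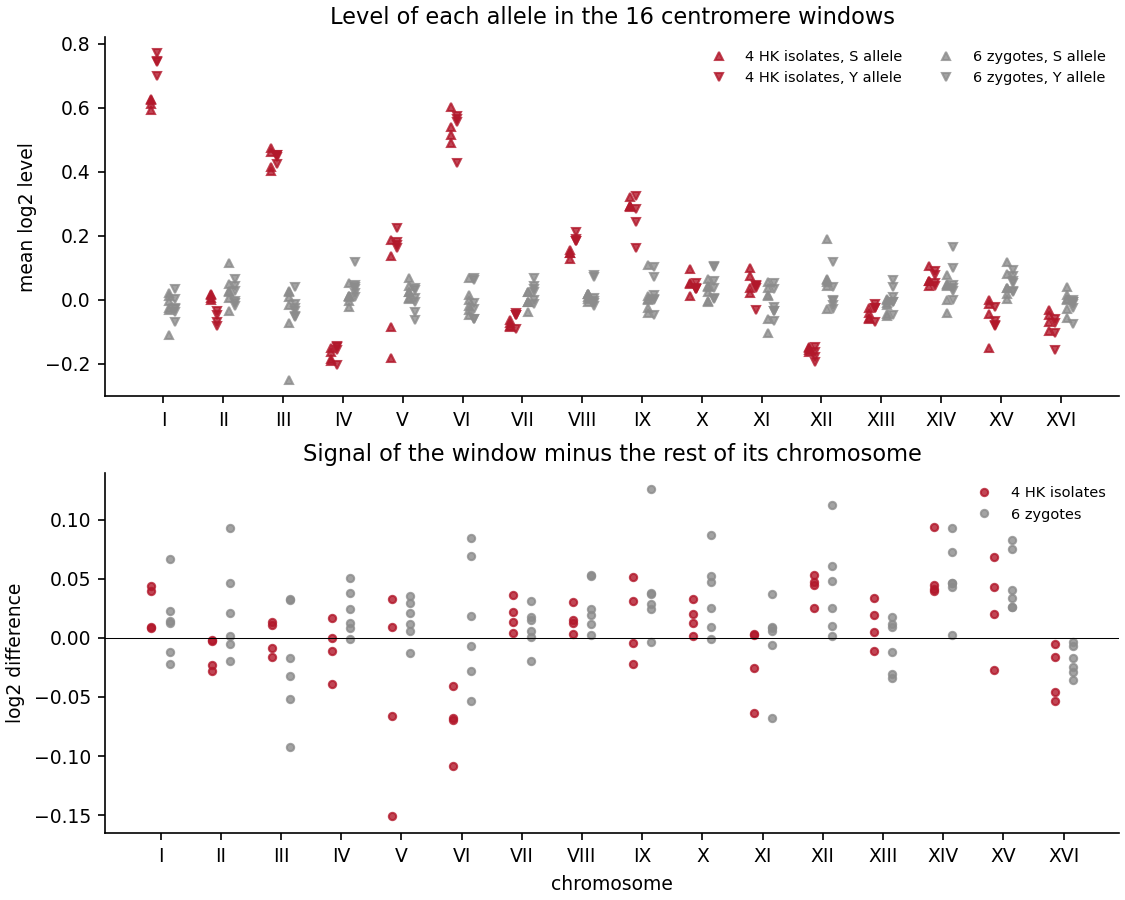
Upper panel: mean log2 level of the S allele (upward triangles) and the Y allele (downward triangles) over the SNPs called heterozygous in each window, by chromosome (x axis), in the 4 HK isolates (red) and the 6 zygotes (grey). Lower panel: mean log2 signal of the window minus that of the rest of its chromosome in the same isolates. The HK levels stand above 0.4 in windows I, III and VI, and in the lower panel, where the rest of the chromosome is subtracted, the HK and zygote points overlap in all 16 windows.

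Over all 16 chromosomes, the windows stood very slightly above the rest of their chromosomes. In HK10 the value was 0.0100 (isolate A) and -0.0061 (isolate B), and in HK12 it was 0.0089 (isolate A) and -0.0033 (isolate B). In the MD893-1 zygotes 1 to 4 it was 0.0014, 0.0221, 0.0006 and 0.0171, and in the MD893-2 zygotes 1 and 2 it was 0.0223 and 0.0475. With A and B of a name averaged, 8 of 8 units were above 0, with a mean of 0.0145 ± 0.0164 (SD, n = 8) and p = 0.00781 by an exact two-sided sign-flip test, the lowest that 8 units allow. The isolates HK10 B and HK12 B were each below 0, and without HK10 A or HK12 A the exact p was 0.0703 or 0.0547. The HK10 values count the 4 SNPs of the homozygous run on chromosome V as heterozygous. With them window V stood at -0.07 in HK10 A and -0.15 in HK10 B, and without them at 0.03 and -0.02. The HK10 values over all chromosomes were not computed without them. The sign of the HK10 B value and the p without HK10 A are therefore not settled. The mean of 0.0145 was smaller than the SD over units. With all measured SNPs, homozygous ones included, the mean was 0.0355. At that setting the HK isolates ran from 0.0532 to 0.120 and the zygotes from 0.0016 to 0.0485, so the rise lay mainly in the HK isolates.

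The HK isolates averaged 0.0024 ± 0.0082 in this measure (SD, n = 4) and the zygotes 0.0185 ± 0.0172 (SD, n = 6). The HK average includes the homozygous run of HK10 on chromosome V. The values of the sets overlapped, and the difference of -0.0161 had an exact two-sided permutation p = 0.114. With all measured SNPs, homozygous ones included, the difference turned to 0.0646 (exact permutation p = 0.00952), and with medians over SNPs it was -0.0031 (exact permutation p = 0.781). These p-values count isolates A and B of a name as separate samples. By name, the main measure averaged 0.0019 in HK10 and 0.0028 in HK12. In the same measure the average was 0.0103 ± 0.0109 for MD893-1 zygotes (SD, n = 4) and 0.0349 ± 0.0178 for MD893-2 zygotes (SD, n = 2). The difference of -0.0246 had an exact two-sided permutation p = 0.133, the smallest that 15 splits of 4 against 2 allow, so this comparison could not have passed the threshold. By distance, HK isolates averaged -0.0095 ± 0.0110 and zygotes 0.0067 ± 0.0249 at the 207 SNPs within 5 kb of a centromere. At the 128 SNPs 15 to 20 kb away HK isolates averaged 0.0202 ± 0.0100 and zygotes 0.0064 ± 0.0166, and at the 309 SNPs just outside, 20 to 30 kb away, HK isolates averaged 0.0003 ± 0.0081 and zygotes 0.0036 ± 0.0033 (SD, n = 4 and n = 6). At these distances the values of the sets overlapped. At the 160 SNPs 10 to 15 kb away, which hold the homozygous run of HK10 on chromosome V, HK isolates averaged -0.0139 ± 0.0159 and zygotes 0.0337 ± 0.0274. There the highest HK value, 0.0033, was below the lowest zygote value, 0.0073, and this difference, seen among the distances compared, was not tested. The HK10 values there, -0.0131 in A and -0.0352 in B, count the run as heterozygous. Its signal relative to the other heterozygous SNPs of window V was -0.90 in HK10 A and -1.25 in HK10 B. The values without the run were not computed, so whether the sets stay apart without it is not known.

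In the allele difference d averaged over each bin, 1 window was called by limma, that of chromosome I. Over the 287 bins 17 were higher (5.92%) and 7 lower (2.44%) in HK, and window I was 1 of the 7. Without HK10 A the called bins numbered 4, with 2 higher and 2 lower, and window I was among them. Its mean d was -0.12 and -0.09 in isolates A and B of HK10 and -0.13 and -0.16 in isolates A and B of HK12, against 0.017, -0.0032, 0.019 and 0.034 in the MD893-1 zygotes 1 to 4 and 0.015 and 0.027 in the MD893-2 zygotes. The sets did not overlap, and the difference was -0.14 (SE 0.02, limma adjusted p = 0.00251). Of 29 SNPs of window I with values in both sets, 25 were lower in HK. This count uses the same values as the called mean and is no separate test, and it was not made for other windows. Both alleles were above the zygote level there, the S allele by less than the Y allele, and no SNP of the window was called homozygous. The bins on each side of window I had like differences, -0.10 on the left (limma adjusted p = 0.175) and -0.13 on the right (limma adjusted p = 0.00325), so the value was not particular to the SNPs near the centromere. Windows X and V, where HK10 alone carried homozygous SNPs, differed by -0.27 (SE 0.12, limma adjusted p = 0.277) and -0.22 (SE 0.07, limma adjusted p = 0.154) and were not called.

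At SNPs called heterozygous, d was 0.0137 ± 0.0128 higher in the windows than in the rest of their chromosomes (SD, n = 8 units). It was above 0 in 7 of 8 units, with an exact two-sided sign-flip p = 0.0234. HK10 was the unit below 0, at -0.0089 in A and -0.0087 in B. These HK10 values count the homozygous run on chromosome V as heterozygous. With tracts of at least 3 SNPs left out, an unplanned setting, d was 0.0159 higher (exact two-sided sign-flip p = 0.00781). That p is the lowest that 8 units allow and requires all 8 on the same side of 0. HK10 was thus not below 0 at that setting. The small value of 0.0137 ended at other window sizes, with 0.0030 at 10 kb (exact p = 0.563) and 0.0080 at 30 kb (exact p = 0.0703).

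On no array did the noise of d in the windows differ from that outside by more than 0.0127, and the windows had somewhat more missing probes. The noise of d was 0.149 to 0.174 in the windows and 0.138 to 0.168 in the rest in the HK isolates. In the zygotes it was 0.142 to 0.290 in the windows and 0.142 to 0.277 in the rest. The windows minus the rest averaged 0.0034 ± 0.0061 (SD, n = 8 units), with an exact two-sided sign-flip p = 0.188. Probes without a value made up 5.85% to 8.33% in the windows and 5.51% to 7.43% in the rest in the HK isolates, and 1.22% to 11.6% in the windows and 0.831% to 10.5% in the rest in the zygotes. The windows had the higher share on all 10 arrays, by 0.684 ± 0.434 percentage points (SD, n = 8 units, exact two-sided sign-flip p = 0.00781). With windows of 10 kb to each side this was 1.45 points, and with 30 kb it was 0.266 points. Whether missing probes bear on the signal of the windows was not tested beyond the SNPs with all 4 probes measured on every array.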

How the data were processed

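Genomic DNA of 10 diploid isolates was measured, 1 array each. The authors deposited 1 linear ratio of isolate (Cy5) to JSC24 control DNA (Cy3) per probe and array, per the labels' protocols. In the deposited table every array's ratios average 1. The sources used here do not name the background correction or probe filters. Arrays had values for 48023 to 53204 of 53664 probes, and their number limits the precision.

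From the deposited ratios, log2 values were centred on each array's median. For SNPs with both alleles, d (S minus Y) and s (mean of both) were computed and centred on array medians. A hidden Markov model (Student t densities with 4 degrees of freedom, homozygous d of 3 or -3 with a scale of 0.8, heterozygous noise of at least 0.1, state change probability of 0.0001) called allele states along whole chromosomes. LOH tracts needed 5 SNPs, and tracts with ends within 3 SNPs in all isolates of a cross were left out. Signal used SNPs called heterozygous, which are all measured SNPs outside tracts and so include homozygous runs under 5 SNPs. The calling and the bin test were tested on simulated data.

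Single values were compared with exact permutation or sign-flip tests (scipy 1.17.1, Python 3.11.15). The windows and 40 kb bins with at least 10 SNPs were tested with limma 3.58.1 in R 4.3.3, 2 HK names against 6 zygotes, with Benjamini-Hochberg adjustment over all bins at 0.05. The bin of d used all measured SNPs. Named windows were those with a counted LOH SNP, those called by limma and the 3 highest and 3 lowest signal differences. Members, lists and tests were chosen with earlier results of these data known. Gene names beside centromeres came from the order of genes in RefSeq R64. The zygote numbers pair no cultures in the labels. Alternatives were other window sizes, tract minimums, SNP filters, averages, names in place of isolates, bin settings and leaving out each isolate.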

Additional observations from a re-analysis of the deposited data

Results flagged for a closer look

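LOH in the windows minus LOH in the rest of the genome differed between the HK isolates and the zygotes by -12.3 percentage points. The zygotes carried almost no LOH anywhere, so this difference reflects the LOH of the HK isolates and does not test the windows against the rest. Among the 4 MD893-1 zygotes, 38 measures of the windows were examined for a value set apart from the rest, and 3 such values were found. Chance flags about 1 in 20 groups. MD893-1 zygote 2 had an LOH difference of -0.0392 points, with the others at 0, through 5 SNPs in LOH outside the windows. It did not stand apart with a minimum of 3 SNPs per tract, when the share of the rest in LOH was 0.0315%, 0.0392%, 0% and 0.0322% in MD893-1 zygotes 1 to 4. In window XIV, the signal minus that of the rest of the chromosome was 0.00235 in MD893-1 zygote 1, with the others at 0.0436 to 0.0470. In window XV it was 0.0752 in MD893-1 zygote 4, with the others at 0.0260 to 0.0337.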

How the results depend on the processing

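The comparisons rest on 10 arrays and 2 HK names, and a tract shorter than the SNP spacing cannot be seen. Against zygotes at or near 0, p-values for LOH show only that HK isolates carried LOH. With tracts of at least 10 SNPs the share of window SNPs in LOH kept its direction but not its threshold (0.0824, exact p = 0.267). The same held with each SNP called by itself at an absolute d over 1.5 (1.22, exact p = 0.0762). With 1 value per HK name the share was 0.812 (exact p = 0.0714), and windows minus rest kept -12.3 (exact p = 0.0714). That p is the lowest that 2 names against 6 zygotes allow, so neither comparison over names could have passed the threshold. At least 10 SNPs removed the chromosome X tract, with 0 SNPs left in HK10 A and B, and at least 3 added the 4 SNPs of window V. Leaving out 1 isolate gave 0.595 to 1.03 for the share and -13.9 to -10.9 for windows minus rest.

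Signal between HK isolates and zygotes turned to 0.0646 with all measured SNPs (exact p = 0.00952), which then include homozygous SNPs. It was -0.0173 with an exact p of 0.0476 for SNPs with all 4 probes measured on all arrays. By the median over SNPs it was -0.0031 with an exact p of 0.781. These p-values count isolates A and B of a name as separate samples, so they may rest on technical spread. Leaving out 1 isolate gave a signal difference of -0.0197 to -0.0103. Over all units the mean was 0.0355 with all measured SNPs, where the rise lay mainly in the HK isolates, and 0.0142 by the median over SNPs (exact p = 0.0547). It was 0.0097 to 0.0164 without 1 isolate, with 0.0135 (exact p = 0.0703) without HK10 A and 0.0137 (exact p = 0.0547) without HK12 A. In these fits without 1 isolate, the HK10 values still count the homozygous run on chromosome V as heterozygous. Values for d were 0.0030 at 10 kb, 0.0080 at 30 kb, 0.0167 with all measured SNPs (exact p = 0.508) and 0.0113 to 0.0154 without 1 isolate. The noise difference was -0.0045 with all measured SNPs and 0.0021 to 0.0045 without 1 isolate, and missing probes gave 0.579 to 0.769 points without 1 isolate, 1.45 at 10 kb and 0.266 at 30 kb. The cause of these changes was not tested.

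Signal bins called numbered 2 with at least 5 SNPs per bin, 221 with no chromosome mean removed (10 windows) and 48 with all measured SNPs (1 window, IV), and leaving out 1 isolate kept 1 bin and 0 windows. With no chromosome mean removed the signal difference turned to 0.54 in window VI, 0.0881 in window V and -0.0339 in window XIII. Bins called for d numbered 4 without HK10 A and at most 25 without any other isolate, and window I was called in each of these fits, with -0.15 to -0.13.

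For MD893-1 against MD893-2 zygotes, leaving out 1 zygote gave -0.0372 to -0.0120. With the zygote number as a replicate block the value was -0.0231 (exact sign-flip p = 0.5, the lowest that 2 pairs allow). Same-numbered zygotes correlated over windows at 0.408 and 0.221, but the numbers are only labels. A median over SNPs has no counterpart for the noise and was not run.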
